A study of Mus musculus with 28 samples.

Results

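The livers described here came from Aag null mice 12 h after methyl methanesulfonate (MMS), and they fill 2 of the 28 arrays of the series. Both arrays were chosen by their titles, and they are all the arrays of that genotype and time. They are set against 4 arrays of untreated Aag null liver, so 6 arrays enter the main comparison. Aag null mice lack the alkyladenine DNA glycosylase encoded by Mpg, and the untreated livers carry the same null allele. The other groups serve for narrower questions, namely Aag null liver at 6 h (3 arrays) and at 24 h after MMS (4 arrays), and wild-type (WT) liver at 12 h after MMS (3 arrays). Untreated WT liver (3 arrays) enters where the changes of both genotypes are compared. Total RNA of whole liver was labelled as biotinylated cRNA and hybridised to Affymetrix MG-U74Av2 arrays. The labels name only mouse liver, genotype, treatment and time, while the sources used here give no strain, sex, age, MMS dose or route. Nothing states that each replicate is an animal of its own, so a p-value measures the spread between arrays only. In the main comparison that spread was estimated within the groups of all 28 arrays, not from the 6 alone.

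MMS transfers methyl groups to DNA bases, and among the products are 7-methylguanine and 3-methyladenine. The Aag glycosylase cuts such bases out of the DNA and so starts base excision repair, in which an endonuclease, a polymerase and a ligase then close the gap. The liver is also the organ that answers systemic stress with acute phase proteins, and its genes of glucose, amino acid and lipid metabolism follow glucocorticoids, feeding and the time of day.

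All values are log2 signals after quantile normalization, so a difference of 1 is a doubling of the signal. A gene was called where its limma adjusted p lay under 0.05 among all 5487 genes that were tested. The error given with a difference is its standard error (SE). RNA of whole tissue was measured, so fewer cells of a type and less RNA per cell cannot be told apart.

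Mpg gave a dim signal that was under the limit for testing. It read 2.52 and 2.41 in the 12 h arrays, against 2.40, 2.33, 2.35 and 2.30 in untreated Aag replicates 1 to 4 and 2.66 ± 0.08 in WT liver at 12 h (SD, n = 3). The sources used here do not place its probes inside or outside the deleted part, so the signal is no check of the genotype.

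The arrays fall into 2 sets by the hybridization controls, transcripts of known amount that are added before hybridization. Their mean was 10.25 to 11.65 on 5 arrays, which are the 3 untreated WT arrays and untreated Aag replicates 3 and 4, and 6.42 to 9.22 on the other 23. The 12 h arrays read 8.38 and 8.22 and untreated Aag replicates 1 and 2 read 8.17 and 8.09, so those 4 arrays match. A sign of RNA quality moved with the sets, since the Gapdh control probes read 0.63 to 0.92 higher at the 3′ than at the 5′ end on the 5 high arrays, and -0.37 to 0.21 on the other 23. That difference was -0.11 and 0.17 in the 12 h arrays, against -0.19, 0.02, 0.64 and 0.67 in untreated Aag replicates 1 to 4. Over the 5487 genes tested, the 12 h arrays correlated with each other at r = 0.992. Their r was 0.970 to 0.975 with untreated replicates 1 and 2, and 0.939 to 0.951 with untreated replicates 3 and 4. These are correlations across genes, which are not independent replicates. Untreated replicate 3 also carried transcripts typical of female liver, with Cyp2b9 at 7.73 there, against 3.24 and 3.24 in the 12 h arrays and 3.00 to 4.21 in the other 3 untreated arrays. Changes below are therefore set against all 4 untreated arrays and against replicates 1 and 2 alone, called the matched pair. The share of array set, RNA quality and sex pattern in the results was not tested beyond these values.

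Against all 4 untreated livers, 24 of 5487 genes (0.437%) were called at 12 h, with 9 higher (0.164%) and 15 lower (0.273%). The rises were led by Slc25a25, Tat, Fmo5 and Fkbp5, and the falls by Kcnj9, Pigk, Rpa2, Hsd17b2, Pla2g4f, Agxt and Commd1. At an unadjusted p under 0.05 there were 611 genes, and the median difference over all genes tested was 0.03. Every one of the 24 genes lay outside the range of the 4 untreated arrays in both 12 h arrays, where 23.9% of all genes did. The 24 were picked by a test on these same arrays. A gene outside that range must also keep its direction against untreated replicates 1 and 2 alone, as all 24 did. Neither count is therefore support for the calls. The split turns with the scaling, since the values as deposited gave 9 higher and 6 lower. A fit of the 2 compared groups alone called 3 genes, and Tat was the 1 gene of the 24 that kept its call. Without 12 h replicate 1, or without 12 h replicate 2, the fit called 0 genes, without untreated replicates 1 to 4 in turn it called 89, 46, 4 and 8, and without the arrays of female-typical pattern it called 3, namely Fkbp5, Apmap and Gabarapl1.

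**Figure D1:**
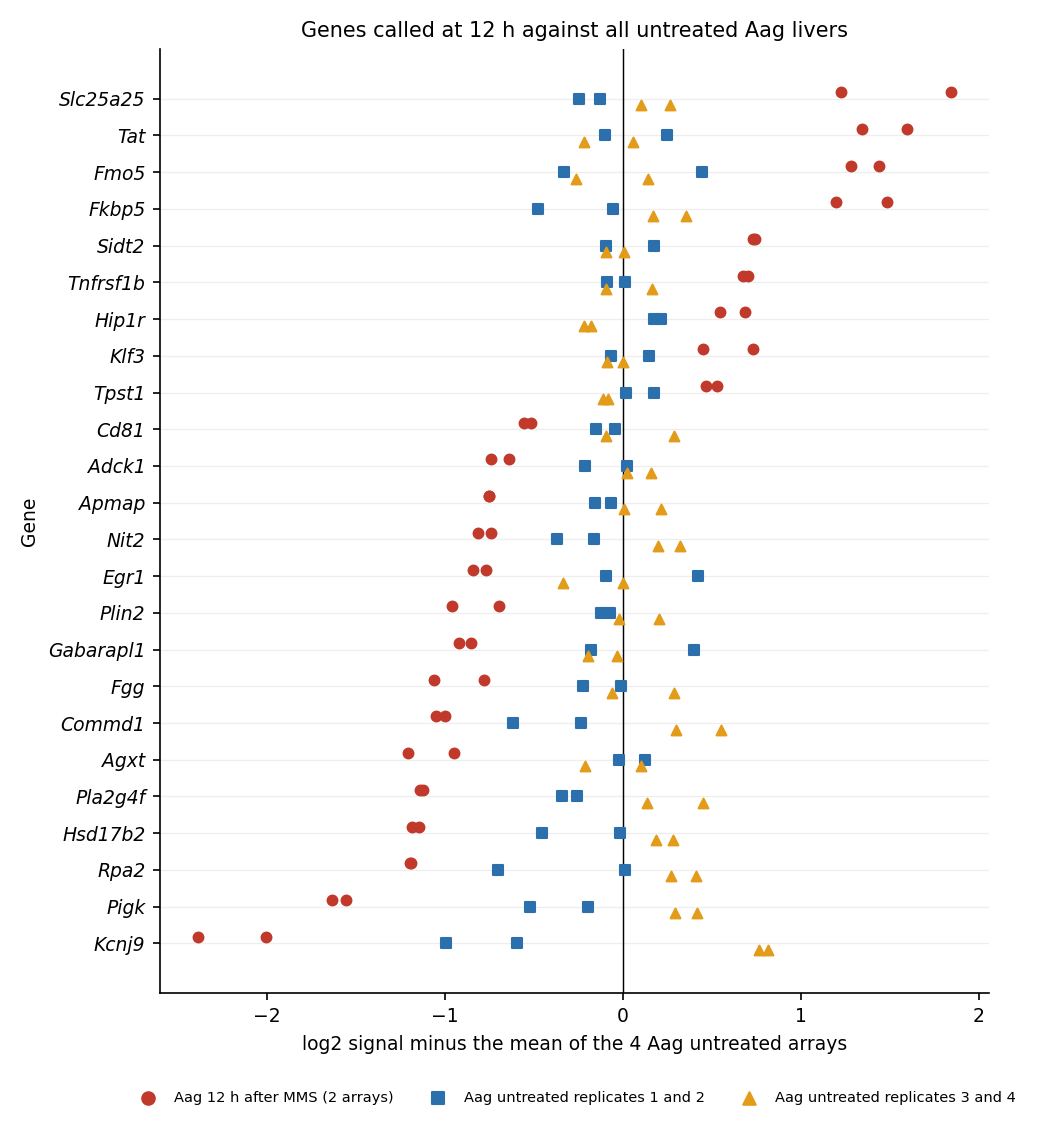
Each row is a gene called at 12 h against all untreated Aag livers, and each point is 1 array, placed by its log2 signal minus the mean of the 4 untreated arrays. In all 24 rows both 12 h arrays lie beyond the 4 untreated arrays, and in the lower rows, from Commd1 to Kcnj9, untreated replicates 3 and 4 lie mostly further from the 12 h arrays than replicates 1 and 2.

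Against untreated replicates 1 and 2 alone, 15 genes (0.273%) were called, with 10 higher (0.182%) and 5 lower (0.0911%). The values as deposited gave 13 higher and 0 lower, so the falls of this comparison depend on the scaling. At an unadjusted p under 0.05 there were 400. Called in both comparisons were 5 genes, Slc25a25, Fkbp5, Apmap, Egr1 and Gabarapl1, which are 20.8% of the 24 and 33.3% of the 15. Both comparisons share the 12 h arrays and untreated replicates 1 and 2. Against untreated replicates 3 and 4 alone, 491 genes (8.95%) passed. Leaving out 1 of the 4 arrays of the matched comparison left 2 calls without 12 h replicate 1, 0 without 12 h replicate 2, 2 without untreated replicate 1 and 6 without untreated replicate 2.

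The genes called against both sets of untreated arrays have different roles. Fkbp5 encodes a co-chaperone of Hsp90 that binds the glucocorticoid receptor complex, and its gene is a known target of that receptor. Its signal was 6.59 and 6.88 in the 12 h arrays, against 4.92, 5.34, 5.75 and 5.57 in untreated replicates 1 to 4. Both 12 h arrays lay above every untreated array, and replicates 3 and 4 were the higher of the untreated ones. Fkbp5 rose by 1.34 (SE 0.21, limma adjusted p = 0.00447), and by 1.61 against the matched pair (SE 0.22, adjusted p = 0.00126). Slc25a25, a mitochondrial carrier of ATP-Mg and phosphate, read 8.44 and 9.06 in the 12 h arrays, against 6.96, 7.09, 7.48 and 7.31 in untreated replicates 1 to 4. The groups did not overlap, although the 12 h arrays differed from each other more than the untreated ones did. Slc25a25 rose by 1.54 (SE 0.30, adjusted p = 0.0236), and by 1.72 against the matched pair (adjusted p = 0.0306).

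Gabarapl1, an Atg8-family protein that is built into autophagosome membranes, read 7.66 and 7.72 in the 12 h arrays, against 8.98, 8.40, 8.38 and 8.55 in untreated replicates 1 to 4. The 12 h arrays were close to each other and below all untreated arrays, of which replicate 1 was the highest. Gabarapl1 fell by 0.89 (SE 0.14, limma adjusted p = 0.00546), and by 1.00 against the matched pair (adjusted p = 0.00558). Apmap, a membrane protein first described in adipocytes, read 4.35 and 4.36 in the 12 h arrays, against 4.95, 5.04, 5.32 and 5.11 in untreated replicates 1 to 4. Here too the groups did not overlap, and the fall of 0.75 (SE 0.11, adjusted p = 0.00447) was 0.64 against the matched pair (adjusted p = 0.0196). Egr1, an immediate early transcription factor, read 4.73 and 4.81 in the 12 h arrays, against 6.00, 5.48, 5.58 and 5.24 in untreated replicates 1 to 4. Egr1 fell by 0.80 (SE 0.16, adjusted p = 0.0236), and by 0.97 against the matched pair (adjusted p = 0.00903). A second probe set of Egr1, whose mean signal over all arrays was only 2.22, differed by 0.04.

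The glucocorticoid receptor is a nuclear receptor that turns on genes of amino acid breakdown, glucose output and stress protection in liver. Of 28 listed target genes 26 were on the array and 25 were bright enough to test, and 2 of these rose while 0 fell, against 0.164% and 0.273% of all genes. The median difference of the 25 was 0.28, against 0.03 over all genes, and 20 of the 25 were positive, where 55.0% of all genes were. Against the matched pair 1 rose and 0 fell, with a median of 0.17. There 15 of the 25 were positive, where 49.8% of all genes were.

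Tat, tyrosine aminotransferase, the first enzyme of tyrosine breakdown and a long-known glucocorticoid target, read 11.04 and 10.78 in the 12 h arrays, against 9.34, 9.69, 9.22 and 9.49 in untreated replicates 1 to 4. Both 12 h arrays were more than 1 log2 unit above every untreated array. Tat rose by 1.47 (SE 0.27, limma adjusted p = 0.0236), which is a 2.77-fold higher signal. Against the matched pair the difference was 1.39 (SE 0.33, adjusted p = 0.0848), which did not pass. G6pc, the glucose-6-phosphatase that releases glucose, differed by 1.22 (SE 0.40, adjusted p = 0.204), and Ddit4, an inhibitor of mTOR signalling, by 0.59 (SE 0.21, adjusted p = 0.247). Against the matched pair the differences were 1.33 (adjusted p = 0.436) and 0.62 (adjusted p = 0.533), and none of the 4 passed.

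Promoter sequence is shown for Fkbp5 and Tat, the 2 called members of that list, and for Fgg, the called acute phase gene described below. The windows run from 250 bases before to 50 after the annotated start and are from RefSeq on GRCm38.p6, at chr17:28486100-28486399 (minus strand) for Fkbp5, chr8:109990186-109990485 (plus strand) for Tat and chr3:83007474-83007773 (plus strand) for Fgg. Capitals mark the glucocorticoid receptor half-site AGAACA, read on either strand as AGAACA or TGTTCT, and the E-box CACGTG, which reads the same on both strands.
Fkbp5: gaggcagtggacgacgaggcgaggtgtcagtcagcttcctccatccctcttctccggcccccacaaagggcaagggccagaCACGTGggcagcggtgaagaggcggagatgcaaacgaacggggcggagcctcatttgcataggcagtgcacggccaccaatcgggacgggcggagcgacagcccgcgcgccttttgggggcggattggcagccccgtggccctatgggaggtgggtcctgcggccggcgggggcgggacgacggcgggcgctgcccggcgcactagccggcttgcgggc
Tat: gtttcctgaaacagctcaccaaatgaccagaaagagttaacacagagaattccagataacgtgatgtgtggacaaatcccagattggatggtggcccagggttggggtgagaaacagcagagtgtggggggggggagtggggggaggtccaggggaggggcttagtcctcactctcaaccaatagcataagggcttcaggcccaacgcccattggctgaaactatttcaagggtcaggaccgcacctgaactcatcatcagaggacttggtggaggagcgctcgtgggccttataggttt
Fgg: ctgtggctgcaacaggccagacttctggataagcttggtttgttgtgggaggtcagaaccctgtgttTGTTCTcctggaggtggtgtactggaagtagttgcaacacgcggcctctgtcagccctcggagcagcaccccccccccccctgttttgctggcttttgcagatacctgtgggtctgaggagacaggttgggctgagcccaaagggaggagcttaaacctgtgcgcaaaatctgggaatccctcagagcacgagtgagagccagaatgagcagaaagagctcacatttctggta
The windows of Fkbp5 and Fgg held 1 E-box and 1 half-site in that order, and that of Tat held neither. Among all 27025 genes with a promoter in the table, 21.3% had the half-site and 8.09% the E-box in at least 1 window. Of the 24 called genes 21 had a promoter there, and 5 of these held the half-site and 3 the E-box. A match of so few letters describes the window and is no evidence of binding.

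Metallothioneins, small proteins that bind zinc and copper and whose genes answer to metals and glucocorticoids, separated the untreated arrays. Mt1 read 8.92 and 9.73 in the 12 h arrays, against 6.62, 6.31, 9.02 and 8.10 in untreated replicates 1 to 4, and Mt2 read 8.71 and 9.55, against 6.47, 6.15, 8.56 and 7.72. For both genes untreated replicates 1 and 2 were the lowest of the 6 arrays, and Mt1 of 12 h replicate 1 lay between untreated replicates 3 and 4. Mt1 differed by 1.82 (SE 0.65, limma adjusted p = 0.258) against all untreated arrays and by 2.87 against the matched pair (SE 0.62, adjusted p = 0.0514). Mt2 differed by 1.90 (adjusted p = 0.256) and 2.82 (adjusted p = 0.114), so none of the 4 differences passed.

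The other genes that rose against all untreated livers did not pass against the matched pair, where their differences had the same sign. Fmo5, a flavin monooxygenase of the endoplasmic reticulum, read 8.43 and 8.59 in the 12 h arrays, against 6.82, 7.59, 7.29 and 6.89 in untreated replicates 1 to 4, a rise of 1.36 (SE 0.30, limma adjusted p = 0.0404). It was the 1 called member among 20 tested genes of xenobiotic oxidation, where 0.164% of all genes rose, and that list had a median of -0.11, and of -0.05 with 0 called against the matched pair. Tnfrsf1b, the second receptor of tumour necrosis factor, read 4.69 and 4.72 in the 12 h arrays, against 3.93, 4.03, 3.93 and 4.18 in untreated replicates 1 to 4, a rise of 0.69 (SE 0.14, adjusted p = 0.0253). For both genes the groups did not overlap, and against the matched pair Fmo5 differed by 1.30 (adjusted p = 0.162) and Tnfrsf1b by 0.73 (adjusted p = 0.0514). The lysosomal membrane protein Sidt2 rose by 0.74, the endocytic adaptor Hip1r by 0.62, the transcriptional repressor Klf3 by 0.59 and the Golgi sulfotransferase Tpst1 by 0.50, with limma adjusted p from 0.0403 to 0.0498. Their differences from the matched pair were 0.70, 0.42, 0.55 and 0.40. A second probe set of Sidt2 differed by 0.13.

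Among the falls were enzymes and lipid proteins of the hepatocyte. Agxt, alanine-glyoxylate aminotransferase, which removes glyoxylate in peroxisomes, read 6.03 and 6.28 in the 12 h arrays, against 7.21, 7.36, 7.33 and 7.02 in untreated replicates 1 to 4. The 12 h arrays lay clearly below the untreated ones, which were close to each other. Agxt fell by 1.08 (SE 0.21, limma adjusted p = 0.0236), and its difference from the matched pair was -1.13 (adjusted p = 0.0514). With Tat it made 1 higher and 1 lower among 24 tested genes of amino acid breakdown and the urea cycle, against 0.164% and 0.273% of all genes. The median of that list was 0.07, and -0.07 with 0 called against the matched pair. Plin2, which coats lipid droplets, read 8.91 and 8.65 in the 12 h arrays, against 9.54, 9.49, 9.59 and 9.81 in untreated replicates 1 to 4, a fall of 0.83 (SE 0.17, adjusted p = 0.0354). Hsd17b2, which inactivates oestradiol and testosterone, read 5.18 and 5.14 in the 12 h arrays, against 5.87, 6.30, 6.6 and 6.51 in untreated replicates 1 to 4, a fall of 1.16 (SE 0.22, adjusted p = 0.0236). For both genes the groups did not overlap, and against the matched pair Plin2 differed by -0.73 (adjusted p = 0.172) and Hsd17b2 by -0.93 (adjusted p = 0.155).

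Several of the deepest falls had a large step between the untreated sets. Kcnj9, a subunit of G-protein-gated potassium channels, read 4.09 and 4.47 in the 12 h arrays, against 5.48, 5.88, 7.24 and 7.29 in untreated replicates 1 to 4. Replicates 3 and 4 were higher than 1 and 2, which were in turn higher than the 12 h arrays. Kcnj9 fell by 2.20 (SE 0.48, limma adjusted p = 0.0404) against all untreated arrays, while the difference from the matched pair was -1.40 (SE 0.46, adjusted p = 0.319). A second probe set of Kcnj9 read 4.32 in both groups, with a difference of 0.00. Pigk, a subunit of the enzyme that attaches lipid anchors to proteins, read 4.37 and 4.29 in the 12 h arrays, against 5.41, 5.73, 6.22 and 6.34 in untreated replicates 1 to 4, a fall of 1.59 (SE 0.34, adjusted p = 0.0354). Commd1, which takes part in copper export, read 4.38 and 4.44 in the 12 h arrays, against 4.82, 5.2, 5.98 and 5.73 in untreated replicates 1 to 4, a fall of 1.02 (SE 0.21, adjusted p = 0.0354). For both genes the order of the sets was that of Kcnj9, and neither passed against the matched pair, with differences of -1.24 (adjusted p = 0.239) for Pigk and -0.60 (adjusted p = 0.195) for Commd1.

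The phospholipase Pla2g4f fell by 1.13, the omega-amidase Nit2 by 0.78, the mitochondrial kinase-like protein Adck1 by 0.69 and the tetraspanin Cd81 by 0.53, with limma adjusted p from 0.0253 to 0.0475. Against the matched pair their differences were -0.83, -0.51, -0.60 and -0.44, and none passed. Other probe sets of Adck1 differed by 0.05 and -0.31. The differences of 3 of the 24 called genes, Commd1, Kcnj9 and Nit2, shrank by over 1.5 times against the matched pair, and for 18 the matched pair was the closer set to the 12 h arrays.

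Genes of DNA repair and of the p53 response were examined because MMS damages DNA. Of 24 listed genes of base excision and alkylation repair, 16 were on the array and 10 were tested, and 0 passed in either direction, with a median of -0.06, and of -0.08 against the matched pair. The smallest p of the list was that of Ung, the glycosylase that removes uracil, which read 6.27 and 6.23 in the 12 h arrays, against 6.88, 6.66, 7.43 and 7.60 in untreated replicates 1 to 4. Its groups did not overlap, and replicates 3 and 4 were the highest. The difference was -0.89 (SE 0.27, limma adjusted p = 0.174), and -0.52 against the matched pair (adjusted p = 0.79). A second probe set of Ung, with a mean of 4.90 over all arrays, went the other way. It differed by 0.28, and by 0.17 against the matched pair. Apex1, the endonuclease that cuts the site left by a glycosylase, read 4.70 and 4.63 in the 12 h arrays, against 4.70, 4.74, 4.75 and 4.85 in untreated replicates 1 to 4, and the groups met at the highest 12 h and the lowest untreated array. Xrcc1, a scaffold of the later steps, differed by -0.24 (SE 0.24, limma adjusted p = 0.776), and Parp1, which senses strand breaks, by -0.27 (SE 0.19, adjusted p = 0.645). From the matched pair Apex1, Xrcc1 and Parp1 differed by -0.06, -0.21 and -0.34, and none passed. Polb, the repair polymerase, and Mgmt, which reverses O6-methylguanine, were too dim to test, with means of 3.15 and 3.52 at 12 h, against 3.10 and 3.52 in untreated liver.

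Among 10 tested genes of other repair and checkpoint pathways, Rpa2 was the 1 that fell and none rose, against 0.273% and 0.164% of all genes. The median of the list was 0.16, and -0.000142 with 0 called against the matched pair. Rpa2 is a subunit of the protein that coats single-stranded DNA. It read 3.71 and 3.70 in the 12 h arrays, against 4.20, 4.91, 5.17 and 5.31 in untreated replicates 1 to 4. Untreated replicate 1 was the nearest and replicates 3 and 4 the farthest from the 12 h arrays. Rpa2 fell by 1.19 (SE 0.23, limma adjusted p = 0.0236), and differed by -0.85 from the matched pair (adjusted p = 0.186). Of 25 listed p53 targets 11 were tested and 0 passed, with a median of 0.05, and of 0.02 against the matched pair. Cdkn1a, the cyclin-dependent kinase inhibitor p21, read 6.17 and 6.24 in the 12 h arrays, against 6.61, 6.15, 6.19 and 6.17 in untreated replicates 1 to 4. Both 12 h arrays lay within the untreated range, whose top was set by replicate 1, and the difference was -0.07 (SE 0.18, adjusted p = 0.931). A second probe set of Cdkn1a, with a mean of 4.78 over all arrays, differed by 0.20, and by -0.00163 against the matched pair. Mdm2, the ligase that degrades p53, differed by 0.14 (SE 0.19, adjusted p = 0.858). Cdkn1a differed from the matched pair by -0.17 and Mdm2 by 0.05, and neither passed. Ccng1 was too dim to test, with a mean of 1.82 at 12 h, against 1.82 in untreated liver, and Bax and Gdf15 were not analysed here.

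The acute phase response is the release of plasma proteins by hepatocytes after injury or inflammation. Of 30 listed genes 26 were on the array and 23 were tested, and 0 rose and 1 fell, against 0.164% and 0.273% of all genes. The median was 0.16, against 0.03 over all genes, and 0.08 with 0 called against the matched pair. In both 12 h arrays 9 of the 23 lay above all 4 untreated arrays and 4 lay below them, where 12.5% and 11.4% of all genes did. Saa2, serum amyloid A, which rises steeply in the acute phase, read 10.19 and 9.80 in the 12 h arrays, against 7.10, 7.2, 6.19 and 6.34 in untreated replicates 1 to 4. The groups were far apart, yet the difference of 3.29 (SE 0.88, limma adjusted p = 0.117) did not pass. Orm2, an orosomucoid, read 7.81 and 6.90 in the 12 h arrays, against 5.58, 5.91, 6.26 and 6.04 in untreated replicates 1 to 4, a difference of 1.41 (SE 0.32, adjusted p = 0.0518) that just missed the threshold. Both 12 h arrays of Orm2 exceeded the untreated ones and differed from each other by almost 1 log2 unit. The difference from the matched pair was 2.84 for Saa2 (adjusted p = 0.437) and 1.61 for Orm2 (adjusted p = 0.0864).

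Fibrinogen, the clotting protein made of alpha, beta and gamma chains, is counted among acute phase proteins, and 1 of its 3 genes passed. Fgg, the gamma chain, read 8.0 and 8.28 in the 12 h arrays, against 9.05, 8.83, 9.35 and 9.0 in untreated replicates 1 to 4, and the groups did not overlap. Fgg fell by 0.92 (SE 0.21, limma adjusted p = 0.0475), and its difference from the matched pair was -0.81 (adjusted p = 0.221). Fgb, the beta chain, read 7.24 and 7.47 in the 12 h arrays, against 8.29, 8.17, 8.48 and 7.90 in untreated replicates 1 to 4, a difference of -0.85 (SE 0.26, adjusted p = 0.17), and of -0.87 against the matched pair (adjusted p = 0.345). Fga, the alpha chain, was added after its values were seen. It read 8.34 and 8.54 in the 12 h arrays, against 8.92, 8.99, 8.57 and 8.51 in untreated replicates 1 to 4. Its groups overlapped, and the difference was -0.31 (SE 0.21, adjusted p = 0.636), and -0.52 against the matched pair. Among 20 tested genes of fibrinogen and coagulation 0 rose and 1 fell, against 0.164% and 0.273% of all genes. Their median was -0.17 against either set, where that of all genes was 0.03 against all untreated arrays.

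**Figure D2:**
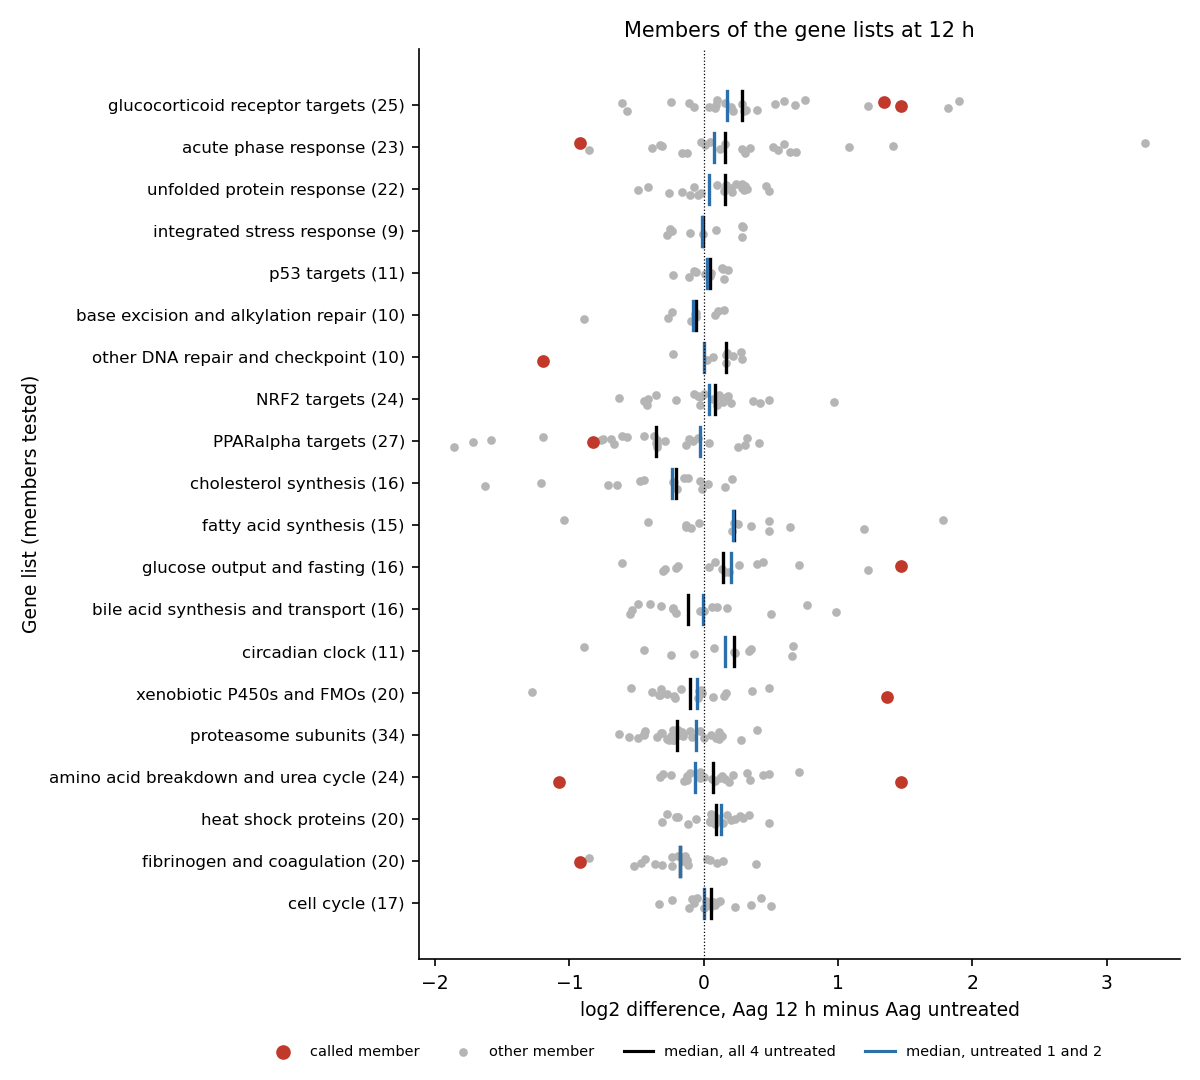
Each row is a gene list with its number of tested members, each point is a member placed by its log2 difference of Aag 12 h minus Aag untreated, red points are called members, and bars are medians against all 4 untreated arrays (black) and against replicates 1 and 2 (blue). Among the 20 lists drawn, the 2 medians differ most for the PPARalpha targets, at -0.35 and -0.03.

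PPARalpha is the nuclear receptor that drives fatty acid oxidation in fasting. Of its 27 tested targets 0 rose and 1, Plin2, fell, against 0.164% and 0.273% of all genes. Their median was -0.35 against all untreated arrays, -0.03 against the matched pair and -0.87 against untreated replicates 3 and 4. Fabp1, the fatty acid binding protein of liver, read 9.69 and 9.90 in the 12 h arrays, against 10.47, 10.32, 11.63 and 11.53 in untreated replicates 1 to 4, with the 12 h arrays lowest, replicates 1 and 2 between and replicates 3 and 4 highest. Its difference was -1.20 (SE 0.29, limma adjusted p = 0.0694), and -0.60 against the matched pair (adjusted p = 0.506). Cholesterol synthesis had 0 called genes of 16 tested and a median of -0.21, and -0.23 against the matched pair. Hmgcs1, the HMG-CoA synthase of this pathway, read 4.92 and 4.80 in the 12 h arrays, against 6.52, 6.54, 6.71 and 6.19 in untreated replicates 1 to 4, with no overlap. The difference of -1.63 (SE 0.44, adjusted p = 0.117) did not pass, nor did that of -1.67 against the matched pair (adjusted p = 0.265). Idi1, an isomerase of the same pathway, differed by -1.21 (SE 0.36, adjusted p = 0.163), and by -1.12 against the matched pair (adjusted p = 0.469).

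Medians of the remaining lists are given against all untreated arrays and then against the matched pair, beside all-gene medians of 0.03 and -0.000614. The unfolded protein response had 0 of 22 called against all untreated arrays, with medians of 0.16 and 0.04, and the integrated stress response 0 of 9, with -0.00351 and -0.01. Targets of NRF2, the sensor of oxidants, had 0 of 24 with 0.08 and 0.04, heat shock proteins 0 of 20 with 0.09 and 0.13, the cell cycle 0 of 17 with 0.06 and 0.00314, and proteasome subunits 0 of 34 with -0.20 and -0.06. Bile acid genes had 0 of 16 with -0.12 and -0.0036, fatty acid synthesis 0 of 15 with 0.23 and 0.21, the circadian clock 0 of 11 with 0.22 and 0.16, and genes of glucose output 1 of 16, Tat, with 0.14 and 0.21, where 0.164% of all genes rose. Against the matched pair these lists held 1 fall, Hsd3b7 of the bile acid genes, and 1 rise, Thrsp of fatty acid synthesis, against 0.0911% and 0.182% of all genes. Nr1d1, the clock repressor REV-ERBalpha, read 4.80 and 4.61 in the 12 h arrays, against 5.61, 5.96, 5.19 and 5.63 in untreated replicates 1 to 4. It lay below all untreated arrays, with a difference of -0.89 (SE 0.22, limma adjusted p = 0.0694), and of -1.08 against the matched pair (adjusted p = 0.0514).

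Defining markers of hepatocytes were bright on all 6 arrays. Alb, Apoa1 and Cyp2e1 read 12.23, 12.29 and 11.58 in 12 h replicate 1 and lay within or at the edge of the untreated range. Ttr read 8.58 in both 12 h arrays, against 8.96 to 9.11 in untreated liver. Summed over the 13 tested hepatocyte markers, of which only Tat was called, the log2 level was 131.81 to 132.01 at 12 h, against 132.44 to 132.86 in untreated Aag liver. The other 8 marker lists for cell types held 0 called genes. Summed over the 13 tested Kupffer cell and macrophage markers, the log2 level was 70.13 to 70.66 at 12 h, against 68.92 to 74.23 in untreated Aag liver. Over the 5 tested endothelial markers it was 25.62 to 26.05, against 26.48 to 27.52, and over the 8 tested pancreas and gut markers 38.22 to 38.83, against 40.78 to 42.83, so these 2 sums, like that of hepatocytes, lay below the untreated range. The part of these cells in the results was not tested. The neutrophil markers S100a8, S100a9 and Mpo were too dim to test, at 2.70 to 2.98 in the 12 h arrays.

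Of the 15 genes called against the matched pair, 10 did not pass against all 4 untreated arrays. In 14 of the 15 genes replicates 3 and 4 were closer to the 12 h arrays than replicates 1 and 2 were. In both 12 h arrays 14 of the 15 lay outside the range of all 4 untreated arrays, where 23.9% of all genes did. The 15 were picked by their distance from replicates 1 and 2, so both counts follow in part from that choice. Thrsp, a regulator of lipogenesis also called Spot 14, read 9.57 and 9.54 in the 12 h arrays, against 6.6, 7.10, 8.93 and 8.48 in untreated replicates 1 to 4. The 12 h arrays were the highest, but replicates 3 and 4 were over 1 unit above 1 and 2. Thrsp rose by 2.71 against the matched pair (SE 0.48, limma adjusted p = 0.0123), and differed by 1.78 from all 4 (adjusted p = 0.163). Noct, nocturnin, a rhythmically expressed phosphatase of NADP(H), read 6.97 and 6.77 in the 12 h arrays, against 4.39, 4.50, 5.50 and 5.68 in untreated replicates 1 to 4. Noct rose by 2.43 (SE 0.47, adjusted p = 0.0214) against the matched pair and differed by 1.85 from all 4 (adjusted p = 0.0624). Other, dimmer probe sets of Noct differed from the matched pair by -0.11 and 0.46, and with the mean of the probe sets the difference of Noct was 0.92 (limma adjusted p = 0.292).

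**Figure D3:**
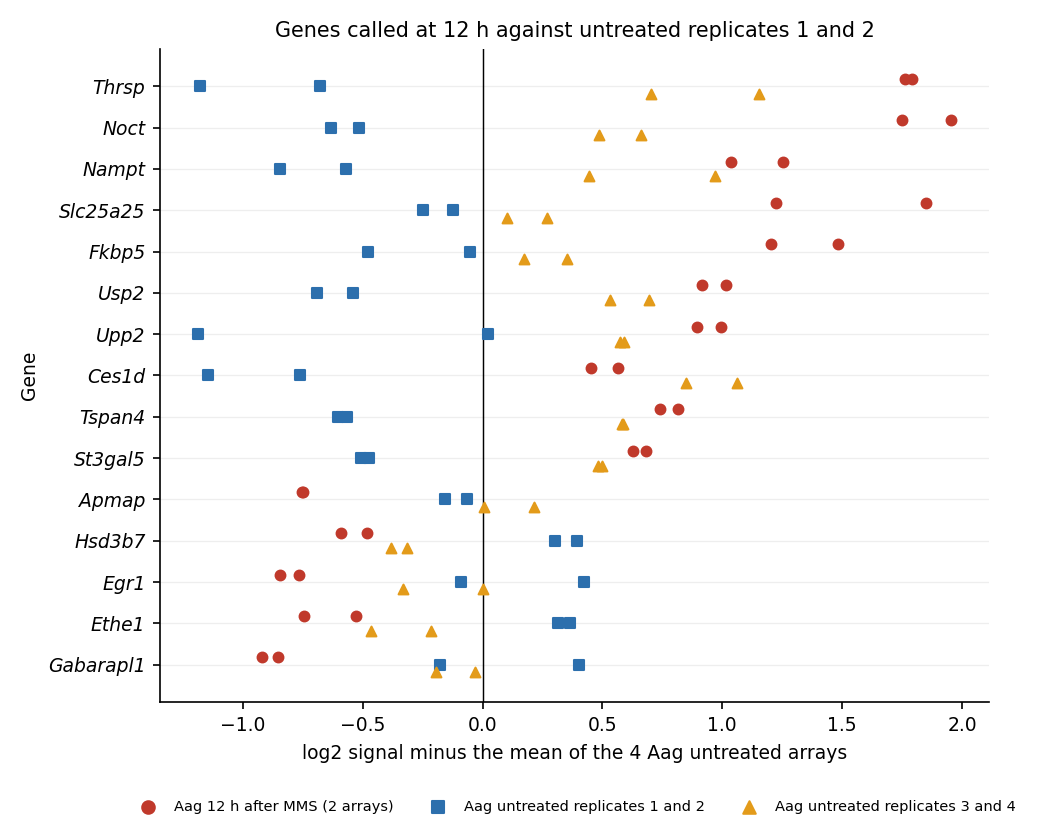
Each row is a gene called at 12 h against untreated replicates 1 and 2, and each point is 1 array, placed by its log2 signal minus the mean of all 4 untreated arrays. In all rows but Ces1d both 12 h arrays lie beyond all untreated arrays, and for genes such as Tspan4 and St3gal5 replicates 3 and 4 lie near the 12 h arrays.

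Enzymes of NAD and nucleoside salvage were among these genes. Nampt, the rate-limiting enzyme of NAD salvage, read 5.86 and 5.64 in the 12 h arrays, against 4.04, 3.77, 5.58 and 5.05 in untreated replicates 1 to 4, a rise of 1.85 against the matched pair (SE 0.30, limma adjusted p = 0.00599). Upp2, a uridine phosphorylase, read 10.40 and 10.50 in the 12 h arrays, against 9.53, 8.32, 10.08 and 10.10 in untreated replicates 1 to 4, a rise of 1.53 (SE 0.29, adjusted p = 0.0196). Without untreated replicate 2, the lowest array, the difference of Upp2 was 0.92 (adjusted p = 0.381). Usp2, a deubiquitinase with a daily rhythm, read 6.73 and 6.63 in the 12 h arrays, against 5.02, 5.17, 6.25 and 6.41 in untreated replicates 1 to 4, a rise of 1.58 (SE 0.24, adjusted p = 0.00371). In each of the 3 genes untreated replicates 3 and 4 lay between the matched pair and the 12 h arrays. Ces1d, a carboxylesterase, read 9.21 and 9.10 in the 12 h arrays, against 7.88, 7.5, 9.49 and 9.71 in untreated replicates 1 to 4. Here replicates 3 and 4 exceeded the 12 h arrays, so the rise of 1.46 against the matched pair (SE 0.31, adjusted p = 0.0488) was a difference of -0.45 against replicates 3 and 4.

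The tetraspanin Tspan4 rose by 1.36 and the ganglioside synthase St3gal5 by 1.15 against the matched pair, with limma adjusted p = 0.00126 and 0.0169. Hsd3b7, an enzyme of bile acid synthesis, read 9.39 and 9.28 in the 12 h arrays, against 10.26, 10.17, 9.49 and 9.56 in untreated replicates 1 to 4, a fall of 0.89 (SE 0.17, adjusted p = 0.0214). Ethe1, a mitochondrial enzyme of sulfide breakdown, fell by 0.98 (SE 0.21, adjusted p = 0.0488). None of these 4 genes passed against all untreated arrays.

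The 12 h livers were then set against Aag livers at other times after MMS, which use no untreated array. Against 6 h, 1 gene was called (0.0182%), and 104 had an unadjusted p under 0.05. It was Gabarapl1, which averaged 7.69 ± 0.05 at 12 h (SD, n = 2) and 8.60 ± 0.15 at 6 h (SD, n = 3), and so fell by 0.91 (SE 0.15, limma adjusted p = 0.0226). The call was lost without 12 h replicate 1 or 2, without 6 h replicate 1 or 2, with the values as deposited, under median centring, with the replicate block and with only the groups compared. Against 24 h, limma called 0 genes (0%), 174 had an unadjusted p under 0.05, and the smallest adjusted p was 0.0504. Replicates 1 and 2 at 24 h carried the female-typical transcripts, and without the arrays of that pattern the fit also called 0. Over the series of times Fkbp5 averaged 5.39 in untreated Aag liver and 6.13, 6.73, 6.04 and 5.41 in Aag liver 6, 12, 24 and 48 h after MMS. Slc25a25 averaged 7.21 in untreated liver and 7.76, 8.75, 7.93 and 7.94 at 6, 12, 24 and 48 h. Both genes had their highest mean at 12 h, but their differences from 6 h and 24 h did not pass, with adjusted p of at least 0.592.

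**Figure D4:**
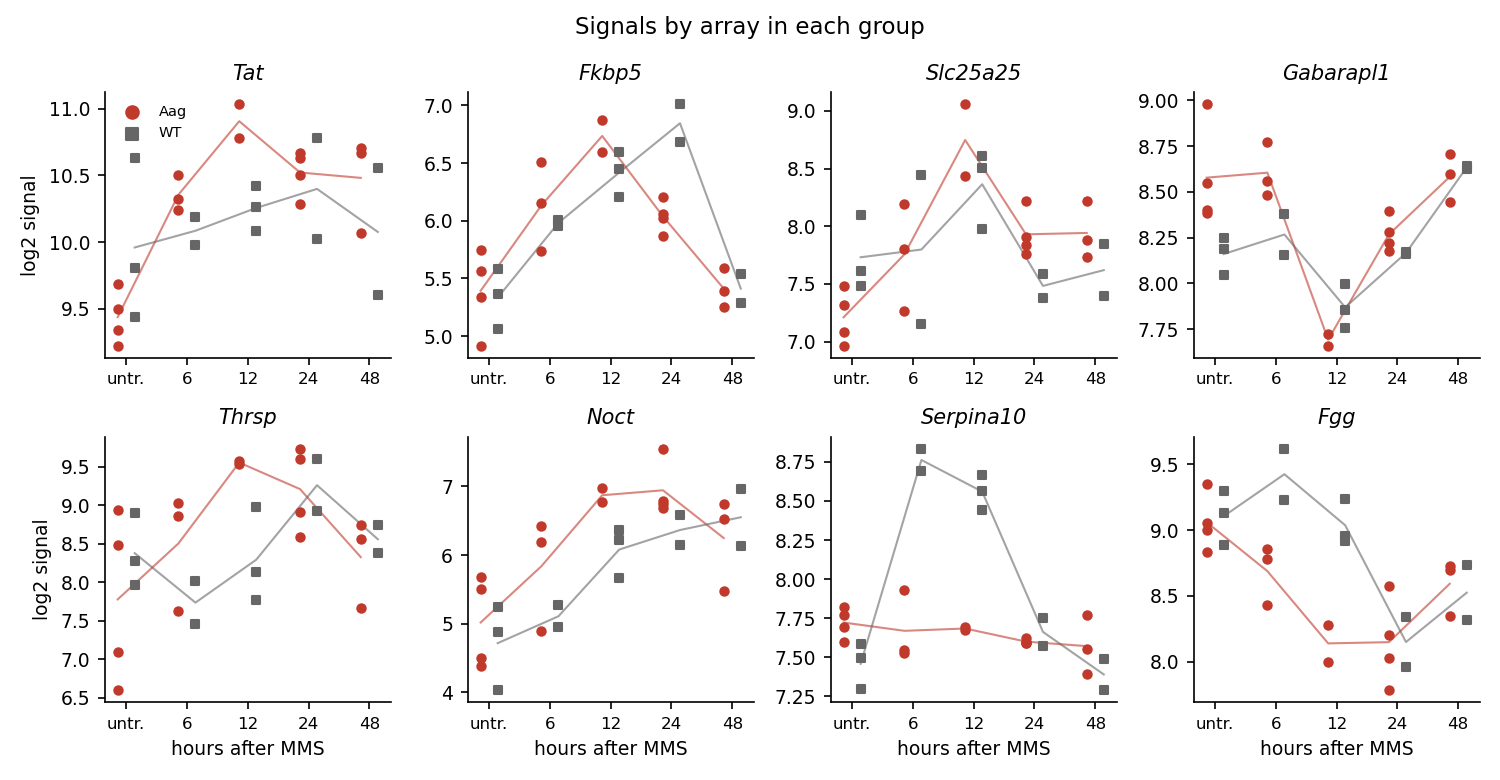
Each panel is a gene, each point 1 array by its log2 signal, and lines join group means over untreated liver and 6, 12, 24 and 48 h after MMS (times equally spaced, Aag in red and WT in grey). Gabarapl1 has its lowest mean at 12 h in both genotypes, at 7.69 in Aag and 7.87 in WT liver, while Serpina10 stands higher in WT liver at 6 and 12 h.

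Against WT liver at 12 h, which had the same treatment and time, 1 gene was called (0.0182%), and 70 had an unadjusted p under 0.05. It was Serpina10, the protein Z-dependent inhibitor of clotting factor X, which read 7.70 and 7.67 in the Aag 12 h arrays, against 8.57, 8.67 and 8.44 in WT 12 h replicates 1 to 3. All 3 WT arrays lay above both Aag arrays. Serpina10 was lower by 0.88 in Aag liver (SE 0.14, limma adjusted p = 0.0132), and the call was lost without Aag replicate 1 or 2, without WT replicate 1 or 2, with the values as deposited and under median centring. Itih4, an inter-alpha-trypsin inhibitor heavy chain of the acute phase, read 8.51 and 8.43 in the Aag 12 h arrays, against 9.82, 9.59 and 9.29 in WT 12 h replicates 1 to 3. Its difference was -1.10 (SE 0.20, adjusted p = 0.0533), which just missed the threshold.

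Among the 23 acute phase genes 0 passed in this comparison, but 14 lay below all WT 12 h arrays in both Aag 12 h arrays and 3 above, where 15.1% and 14.4% of all genes did. Their median difference was -0.39, against -0.01 over all genes, and 4 of the 23 were positive, where 46.7% of all genes were. Saa2 read 10.19 and 9.80 in the Aag 12 h arrays, against 11.40, 10.94 and 11.19 in WT 12 h replicates 1 to 3, with no overlap. Fgg read 8.0 and 8.28 in the Aag 12 h arrays, against 9.24, 8.95 and 8.92 in the WT ones, and Fgb read 7.24 and 7.47, against 8.57, 8.41 and 8.12. Fgg and Fgb stood apart in the same way, with differences of -0.90 (SE 0.22, limma adjusted p = 0.427) and -1.01 (SE 0.27, adjusted p = 0.833). Summed marker levels of several cell types stood apart between the genotypes beside them, with 0 called markers. Of the Kupffer cell and macrophage markers 11 of 13 were higher in Aag liver, with a median of 0.49. Their summed log2 level was 70.13 to 70.66 in Aag 12 h arrays and 62.38 to 66.68 in WT 12 h arrays. Sums of 10 stellate cell and fibroblast markers were 52.58 to 53.11 in Aag and 50.95 to 51.49 in WT 12 h arrays, and those of 13 hepatocyte markers 131.81 to 132.01 and 131.01 to 131.67. Sums of 6 neutrophil markers were 30.47 to 30.68 in Aag and 30.79 to 32.30 in WT 12 h arrays, with 0 of the 6 higher in Aag liver. The part of these cells in the result was not tested.

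**Figure D5:**
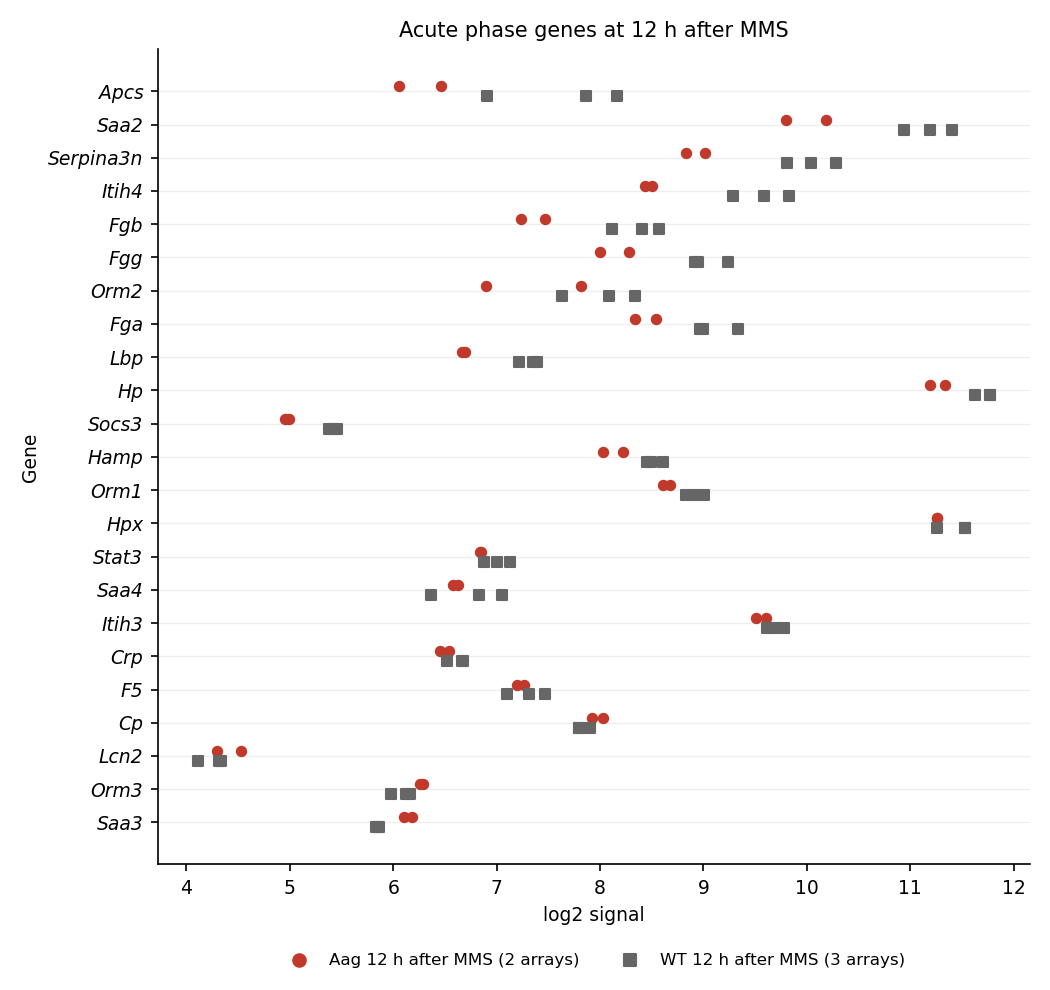
Each row is an acute phase gene, ordered by the difference of Aag 12 h minus WT 12 h, and each point is 1 array by its log2 signal (Aag red, WT grey). From Apcs at the top to Hamp every row except Orm2 has both Aag arrays left of all WT arrays, and this holds in 14 of the 23 genes.

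The change in Aag liver was also set against the change in WT liver from its own untreated arrays at 12 h. The difference of the changes passed for 9 genes (0.164%), with 6 positive and 3 negative, and 452 had an unadjusted p under 0.05. All 3 untreated WT arrays belong to the set with high hybridization controls, and all 3 WT 12 h arrays belong to the other set. Treatment cannot therefore be told apart from array set, and the RNA quality that moved with it, in the WT change. The Aag untreated arrays are divided between the sets, so genotype and array set cannot be fully told apart here. Serpina10 had a change of -0.04 in Aag liver, against 1.10 in WT liver (difference -1.14, SE 0.18, limma adjusted p = 0.0135). Itih4 had a change of -0.12 in Aag liver, against 1.17 in WT liver (difference -1.29, SE 0.27, adjusted p = 0.042). In WT liver itself both genes were higher at 12 h than in untreated liver, with limma adjusted p = 5.74e-06 for Serpina10 and 0.000151 for Itih4. That difference is also 1 between the array sets. Slc5a6, the carrier of biotin and pantothenate, had a change of -0.11 in Aag liver, against 0.91 in WT liver (adjusted p = 0.0217).

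The 6 genes with a positive difference were all lower in WT liver at 12 h than in untreated WT liver. The limma adjusted p for that WT change, which is also a difference between the array sets, was at most 0.00464. G6pc had a change of 1.22 in Aag liver, against -1.62 in WT liver, with 12 h arrays at 8.77 and 9.59 in Aag and 7.80, 8.73 and 8.26 in WT liver. Its untreated levels were 7.87, 7.82, 8.06 and 8.07 in Aag and 9.40, 9.95 and 10.28 in WT liver, so the untreated arrays of the genotypes did not overlap. The difference of the changes was 2.84 (SE 0.56, limma adjusted p = 0.0351). Bhmt, which remethylates homocysteine with betaine, had a change of -0.33 in Aag liver, against -2.09 in WT liver (adjusted p = 0.0217). Tubb2a, a tubulin, had a change of -0.33 in Aag liver, against -2.47 in WT liver (adjusted p = 0.0259). With the mean of the probe sets the difference was 0.83 for Bhmt (adjusted p = 0.163) and 0.96 for Tubb2a (adjusted p = 0.156), so neither passed. Tmem150a, the clock repressor Cry1 and the tyrosine-breakdown enzyme Hgd had differences of 1.43, 1.29 and 1.09, with adjusted p from 0.0351 to 0.0401. Without Aag 12 h replicate 1 or 2, without WT 12 h replicate 2, without the female-typical arrays, or under median centring, the fit called 0 of these differences.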

How the data were processed

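Liver RNA was measured on 28 Affymetrix MG-U74Av2 arrays, grouped by genotype, treatment and time as the labels give them. The deposited table holds 1 value per probe set and array. The authors' values were taken to be log2 signals because they run from 0.689 to 13.2, while the sources used here do not state how they were summarised and scaled. RNA was extracted with RNeasy kits and labelled as biotinylated cRNA, per the labels' protocols.

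Arrays were quantile normalized, since their medians spanned 0.215. Of 12488 probe sets, 66 controls were left out, 10833 carried 1 gene symbol, 396 several and 1193 none. The platform's symbols can be old. The probe set with the highest mean signal stood for each gene, and a gene was tested where at least 2 arrays read it above their median, which kept 5487 of 8251. The number of arrays limits the precision, and detection above background was not analysed here. limma 3.58.1 in R 4.3.3 fitted all 10 groups together (18 residual degrees of freedom), with eBayes trend and Benjamini-Hochberg adjustment over all genes tested. The fit against untreated replicates 1 and 2 left out replicates 3 and 4 (16 degrees of freedom). The script was tested on simulated data. Promoters came from RefSeq (GRCm38.p6), and 30 of 34 called genes had one, with chromosome 18 left out.

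Named are Mpg, all called genes (at most 10 in each direction against replicates 1 and 2, and at most 8 in the other comparisons), up to 4 members per list with the smallest p, and 12 genes of metal and damage responses. The members and the 31 lists were chosen with earlier results of these data known. Replicate numbers were checked for pairing, and the deviations of same-numbered 12 h and untreated Aag arrays correlated at -0.15 and -0.10. The 12 h deviations mirror each other, and the untreated ones are taken from the mean of all 4 arrays. The check therefore cannot decide whether the numbers pair the arrays. Alternatives were the values as deposited, centring on medians, all genes without the filter on dim ones, averaged probe sets, a replicate block, array weights, only the groups compared, leaving out arrays, and the array set as a term. Running them for the comparison against replicates 1 and 2 was chosen after seeing the data, as were 2 alternatives for the lists.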

Additional observations from a re-analysis of the deposited data

Results flagged for a closer look

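Among 54 named genes, groups of 4 arrays were looked at for 1 array far from the other 3, in 108 cases. A gap to the nearest array over the whole range of the group was taken as large above Dixon's limit for 4 values, which a small share of groups pass by chance alone. Passing were 6 of the 108 cases. This number was not compared with the number that chance alone gives, so the cases are only described. Cdkn1a in untreated Aag replicate 1 had a ratio of 0.911, with a level of 6.61, against 6.15 to 6.19 in the other 3. Ccng1 in untreated Aag replicate 2 had a ratio of 0.844, with a level of 1.73, against 1.84 to 1.86. The other cases were in Aag liver at 24 h. There Noct in replicate 1 had a ratio of 0.890, with a level of 7.55, against 6.69 to 6.79. Replicate 2 stood apart for Rpa2 (ratio 0.882, level 3.74, against 3.92 to 3.94), for Tspan4 (ratio 0.866, level 7.04, against 7.29 to 7.33) and for Bhmt (ratio 0.908, level 8.81, against 9.33 to 9.39). Replicates 1 and 2 at 24 h also carried the female-typical transcripts.

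For 9 genes the change at 12 h differed between Aag and WT liver by the test of the difference of the changes. It was positive, with a higher change in Aag liver, for G6pc (2.84, limma adjusted p = 0.0351), Tubb2a (2.13, 0.0259), Bhmt (1.76, 0.0217), Tmem150a (1.43, 0.0399), Cry1 (1.29, 0.0401) and Hgd (1.09, 0.0351). It was negative for Itih4 (-1.29, limma adjusted p = 0.042), Serpina10 (-1.14, 0.0135) and Slc5a6 (-1.02, 0.0217). All 9 rest on untreated WT arrays that lie in the set with high hybridization controls, while the WT 12 h arrays lie in the other set.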

How the results depend on the processing

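No called difference of the 5 comparisons or of the matched comparison turned its direction under any alternative run, but the counts of called genes moved with most settings, and the cause was not tested. Against all 4 untreated arrays the count of 24 was 15 with the values as deposited, 15 without the brightness filter, 7 with the replicate block, 555 with array weights (whose fit did not fully converge), 3 with only the groups compared, 3 without the arrays of female-typical pattern, 15 with untreated replicates 1 and 2 only and 491 with replicates 3 and 4 only. It was 16 under median centring, with 6 higher and 10 lower. Leaving out 1 array gave 0 to 89. The replicate block kept Slc25a25, Tat, Fkbp5, Apmap, Egr1, Gabarapl1 and Agxt. With only the groups compared, Tat kept its call and the other 23 lost theirs, among them Slc25a25, Fkbp5, Apmap, Egr1 and Gabarapl1. Those 23 calls therefore need the spread shared with the other groups. In the comparison against replicates 1 and 2 that setting kept 13 of the 15 calls. Against replicates 1 and 2, the count of 15 was 8 under median centring, 156 with array weights and 79 with only the groups compared, and leaving out 1 array gave 0 to 6. With the replicate block it was 19.

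Against 6 h, the count of 1 was 0 with the values as deposited, median centring, the replicate block and only the groups compared, and leaving out 1 array gave 0 to 1. Against 24 h, the count of 0 was 1 without the filter, 209 with array weights and 9 with only the groups compared, and leaving out 1 array gave 0 to 1. Against WT 12 h, the count of 1 was 0 with the values as deposited and under median centring, 2 with the probe set mean, 53 with array weights, 19 with only the groups compared and 2 without the female-typical arrays, and leaving out 1 array gave 0 to 2. For the difference of changes, the count of 9 was 3 with the values as deposited, 0 under median centring, 19 without the filter, 5 with the probe set mean, 16 with array weights, 0 without the female-typical arrays and 28 with a term for the array set, while leaving out 1 array gave 0 to 24. The replicate block gave 6. Array signal over background was not analysed here.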

Other observations

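Some lists leaned one way at 12 h against other treated livers without any called member. Against WT liver at 12 h, 15 of 16 tested genes of cholesterol synthesis were higher in Aag liver, with a median of 0.17, and 23 of 24 genes of amino acid breakdown and the urea cycle were higher, with a median of 0.21. Over all genes 46.7% were higher in that comparison, with a median of -0.01. Against Aag liver at 24 h, 20 of 22 genes of the unfolded protein response, which restores protein folding in the endoplasmic reticulum, were higher at 12 h, with a median of 0.31, and 27 of 34 proteasome subunits were higher, with a median of 0.10. Of 27 PPARalpha targets 2 were higher at 12 h, with a median of -0.32. Over all genes 46.8% were higher there, with a median of -0.01. Replicates 1 and 2 at 24 h carried the female-typical transcripts, and the part of that pattern in these values was not tested. Against Aag liver at 6 h, 4 of the 22 genes of the unfolded protein response were higher at 12 h, with a median of -0.26, where 57.5% of all genes were higher, with a median of 0.02. These lists were chosen for description after their values were seen.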
